A study of Homo sapiens with 4 samples.

Results

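The 10 S100A genes described here encode small calcium-binding proteins of the S100A group. Of them, 7 were called lower in Hs578T cells labelled ELK3 knockdown than in cells labelled sh control. Over all genes tested, 21.3% were called lower and 50.8% either way. The 10 genes were chosen by name: S100A1, S100A2, S100A3, S100A4, S100A6, S100A10, S100A11, S100A13, S100A14 and S100A16. Every probe set that the array's annotation pairs with exactly 1 of these symbols was taken, which gave 14 of the 49293 probe sets and 10 of the 18132 genes tested. Hs578T is a human breast cancer cell line with mesenchymal features, and all 4 arrays were made from it. The 2 knockdown arrays (replicates 1 and 5 in the labels) came from cells stably transduced with lentiviral shRNA against ELK3, an ETS family transcription factor, and the 2 control arrays (replicates 1 and 2) from cells labelled as an sh control, whose vector the labels do not describe. The labels do not say whether a number marks a construct, a clone or a culture, so the p-values measure the spread between these arrays, which may be technical. The series asks how ELK3 acts on the chemokine CXCL16 and on natural killer cells.

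S100 proteins are short polypeptides with a pair of calcium-binding EF hands, and most work as dimers. When calcium binds, a hydrophobic face opens and docks onto partners such as annexins and the heavy chain of nonmuscle myosin, so the family links calcium to membranes, to the cytoskeleton and, when released, to receptors on other cells. Most of the human genes lie in a cluster on the long arm of chromosome 1, and several of them, S100A4 foremost, are known for their abundance in motile fibroblasts and in invasive breast cancer cells.

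The stretches upstream of 6 members are shown first: the 5 with the largest falls and S100A10, the 1 member called higher. Each is the 250 bases before the RefSeq start on GRCh38.p14, written 5′ to 3′ on the strand of the gene; where RefSeq lists several starts, the most upstream one is shown. Capitals mark TATAA, searched on the strand of the gene, and TGACTCA, the binding sequence of AP-1, searched on both strands, so that its reverse complement TGAGTCA counts as well.
S100A6 (chr1:153535992-153536241, minus strand): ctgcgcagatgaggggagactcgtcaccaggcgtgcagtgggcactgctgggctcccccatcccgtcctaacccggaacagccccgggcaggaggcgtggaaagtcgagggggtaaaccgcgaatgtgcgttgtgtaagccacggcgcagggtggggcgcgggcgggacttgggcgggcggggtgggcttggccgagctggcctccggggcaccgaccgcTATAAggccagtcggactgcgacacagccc
S100A16 (chr1:153613138-153613387, minus strand): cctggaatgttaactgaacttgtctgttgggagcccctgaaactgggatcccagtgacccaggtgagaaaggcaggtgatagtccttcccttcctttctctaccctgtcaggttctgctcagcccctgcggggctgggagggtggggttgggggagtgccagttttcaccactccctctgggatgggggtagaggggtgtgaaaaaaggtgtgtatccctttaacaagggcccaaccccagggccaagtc
S100A3 (chr1:153549259-153549508, minus strand): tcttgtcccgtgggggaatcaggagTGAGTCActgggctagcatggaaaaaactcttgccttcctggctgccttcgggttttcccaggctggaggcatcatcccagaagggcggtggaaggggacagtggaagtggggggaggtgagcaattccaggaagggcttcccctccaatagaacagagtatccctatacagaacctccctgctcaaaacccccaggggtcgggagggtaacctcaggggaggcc
S100A2 (chr1:153565845-153566094, minus strand): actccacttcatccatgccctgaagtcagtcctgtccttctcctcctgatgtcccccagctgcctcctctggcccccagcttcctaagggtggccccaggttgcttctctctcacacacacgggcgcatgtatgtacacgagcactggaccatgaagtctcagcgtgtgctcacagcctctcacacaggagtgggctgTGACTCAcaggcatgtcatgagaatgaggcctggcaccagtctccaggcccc
S100A4 (chr1:153545807-153546056, minus strand): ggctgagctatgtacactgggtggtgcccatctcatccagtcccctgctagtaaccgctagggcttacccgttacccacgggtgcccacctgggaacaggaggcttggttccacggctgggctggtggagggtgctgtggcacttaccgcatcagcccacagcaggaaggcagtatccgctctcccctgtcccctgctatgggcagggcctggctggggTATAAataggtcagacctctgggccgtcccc
S100A10 (chr1:151993860-151994109, minus strand): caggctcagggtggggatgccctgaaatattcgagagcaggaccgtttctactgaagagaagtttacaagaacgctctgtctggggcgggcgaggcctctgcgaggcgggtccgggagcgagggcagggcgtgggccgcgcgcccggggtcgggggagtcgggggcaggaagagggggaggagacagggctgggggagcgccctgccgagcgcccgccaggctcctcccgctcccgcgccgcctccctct
RefSeq's table gave 14 such windows for the 10 members. TATAA stood in 4 of the 14 windows and in 13.6% of all 35116 windows of this length. The 4 were 1 window each of S100A4, S100A6, S100A13 and S100A14, where it began 31, 30, 29 and 29 bases before the start. TGACTCA stood in 2 of the 14 windows, against 4.20% of all windows. It lay once in S100A2, 52 to 46 bases before the start, and once in S100A3, 225 to 219 bases before it. The 7 letters CCGGAAG, a strong form of the ETS site, were found in none of the 14 windows and in 8.52% of all windows, and the CArG box, to which the ELK3 partner SRF binds, in none of the 14 and in 1.16% of all. Both were searched on both strands. The shorter ETS core GGAA was in every one of the 14 windows, but also in 92.7% of all windows. An NF-kB site was matched in 1 of the 14 windows, that of S100A14, and in 5.21% of all windows. The members differ in base composition: S100A6 and S100A10 each had 24 CpG dinucleotides in the window and S100A16 had 1 and 6 in its 2 windows, where the median of all windows was 11. A match or its absence describes these letters in this window and says nothing of what binds there in the cells.

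ELK3 itself was at 8.09 and 7.92 in the knockdown arrays and at 10.05 and 10.07 in the control arrays, on the log2 scale of the RMA signal (4.16-fold lower, adjusted p = 2.57e-06), so both knockdown arrays carry the change their label names. Of the 10 members, 7 fell, 1 rose and 2 did not pass, by limma with a Benjamini-Hochberg adjusted p under 0.05 over all genes. Of all genes tested, 21.3% were called lower, 29.5% higher and 50.8% either way. With 2 arrays a group, exactly permuting the arrays could give 1 gene no p below 0.33, so every p here comes from the fit across all genes. More than 2-fold falls were seen in 5 of the 10 members, against 7.51% of all genes. The median difference of the members was -1.10 on the log2 scale, and that of all genes -0.01. Both group means lay under the median of all values for 2 of the 10 members and for 6986 of the 18132 genes. The shares of all genes were thus not matched to the members for signal level.

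The arrays are set apart by far more than the S100A genes. Across probe sets Pearson's r was 0.996 between the knockdown arrays, 0.998 between the control arrays and 0.902 to 0.904 between arrays of different groups, values over features and not over replicates. Of 8 markers of basal and mesenchymal breast cells 7 fell, and their mean log2 level was 11.22 to 11.23 in the controls and 9.04 in both knockdown arrays. The median difference of these 8 was -1.78, and VIM, CDH2, FN1, SPARC, CD44 and EGFR ran from -6.19 to -1.04. The basal keratins KRT5 and KRT14 were dim in both groups, meaning that each group's mean lay under the median of all values. KRT5 did not pass (-0.23) and KRT14 fell by little (-0.33). Of 7 luminal markers 3 rose and 4 did not pass, with mean levels of 6.49 to 6.51 in the controls and 8.38 to 8.52 in the knockdown arrays. The keratin genes KRT8, KRT18 and KRT19 carried that rise (log2 differences 5.67, 2.20 and 5.95). The median difference of the list was 0.11, and ESR1, EPCAM and CDH1 were dim in both groups, at -0.12, -0.08 and -0.10. The 4 measured leukocyte markers were dim in both groups and did not pass. All 3 endothelial markers were dim as well, and of these PECAM1 fell. The 3 measured melanocyte markers did not pass, and of 3 adipocyte markers FABP4 fell, at a dim level. The part of these marker shifts in the S100A differences was not tested, and in such bulk RNA fewer cells of a type and less RNA per cell cannot be told apart.

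**Figure D1:**
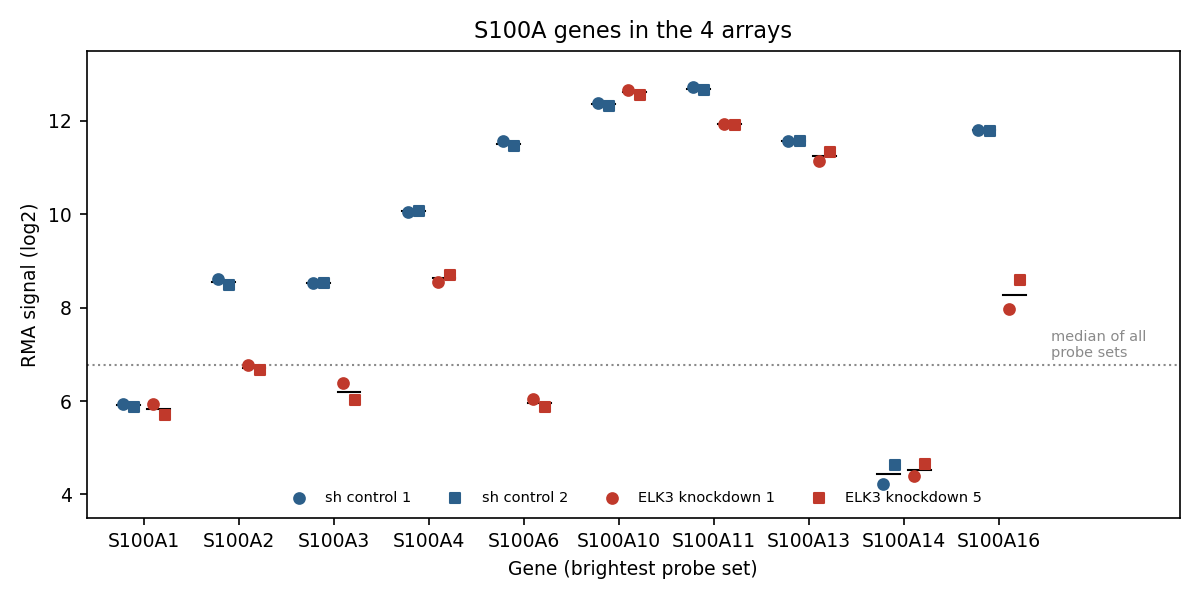
Log2 RMA signal (y axis) of the brightest probe set of each S100A gene (x axis) in the 2 sh control arrays (blue) and the 2 ELK3 knockdown arrays (red); circles and squares are the replicates, short lines the group means, and the dotted line the median of all values (6.78). S100A2, S100A3, S100A4, S100A6, S100A11, S100A13 and S100A16 were called lower in knockdown and S100A10 higher, where 50.8% of all genes were called either way. S100A1 and S100A14 did not pass, and their arrays overlap.

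S100A6, or calcyclin, a partner of annexins and of the ubiquitin ligase adaptor CACYBP, changed more than any other member. Its log2 signal (here and throughout, a level of 1 probe set, not to be set against the level of another gene) was 11.57 and 11.45 in control replicates 1 and 2, and 6.05 and 5.87 in knockdown replicates 1 and 5. The 2 control arrays stood far above the 2 knockdown arrays, with a gap of 5.40 between the nearest arrays. The control arrays averaged 11.51 ± 0.085 (SD, n = 2) and the knockdown arrays 5.96 ± 0.13 (SD, n = 2), a 47.0-fold fall (log2 difference -5.55, SE 0.10, adjusted p = 1.58e-07). Larger falls were measured for 0.259% of all genes. Both knockdown values lie below the median of all probe sets, where a floor of the array may limit how low a signal can read. The fold may thus depend on a floor, which was not measured. The lowest value of each array lay between 2.97 and 3.07. The same possible limit holds for the folds of S100A2 and S100A3, whose knockdown means were also under that median, and it is named below for other genes.

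S100A16, a widely expressed member, had the second fall in size. Its brighter probe set read 11.80 and 11.79 in the control arrays, and 7.97 and 8.59 in knockdown replicates 1 and 5. The fall was 11.4-fold (log2 difference -3.51, SE 0.18, adjusted p = 5.33e-06). The other probe set of S100A16 read 11.68 and 11.67 in the controls, and 7.24 and 7.66 in the knockdown arrays, an 18.7-fold fall (log2 difference -4.22). At both probe sets knockdown replicate 5 stood above replicate 1. At the brighter one they were 0.62 apart, and 1.34% of all genes had a wider gap between the knockdown arrays, whose median was 0.11. This gap is small beside the fall, since the nearest arrays of the 2 groups lay 3.20 apart.

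S100A3, S100A2 and S100A4 lie next to each other between S100A6 and S100A16 and fell less steeply. S100A3, a cysteine-rich protein best known from the hair cuticle, read 8.53 and 8.52 in the control arrays, and 6.38 and 6.03 in the knockdown arrays (5.01-fold lower, log2 difference -2.32, SE 0.14, adjusted p = 1.05e-05). S100A2, a mostly nuclear protein of basal epithelial cells, read 8.62 and 8.48 against 6.77 and 6.66 (3.57-fold lower, log2 difference -1.84, SE 0.11, adjusted p = 9.90e-06). For both, each control array was above each knockdown array, with gaps of 2.14 and 1.72 log2 units between the nearest arrays. The knockdown arrays were 0.35 apart for S100A3, a gap that 7.87% of genes exceeded.

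S100A4, known as metastasin or fibroblast-specific protein, binds the heavy chain of nonmuscle myosin IIA and marks motile mesenchymal cells. Its brightest probe set read 10.06 in both control arrays, and 8.55 and 8.71 in knockdown replicates 1 and 5. The fall was 2.70-fold (log2 difference -1.43, SE 0.09, adjusted p = 1.18e-05). The other 2 probe sets gave differences of -1.53 and -1.58. The 3 probe sets thus differed among themselves by far less than the groups did. Falls larger than that of S100A4 were measured for 4.97% of all genes.

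S100A11, or calgizzarin, a partner of annexin A1, read 12.72 and 12.67 in the control arrays, and 11.93 and 11.92 in the knockdown arrays. The 1.70-fold fall (log2 difference -0.77, SE 0.05, adjusted p = 1.43e-05) was small, but the 2 control arrays lay 0.05 apart and the 2 knockdown arrays less. Falls larger than that of S100A11 were measured for 9.8% of all genes. S100A13, which helps to export FGF1 and interleukin 1 alpha by a route that needs no signal peptide, read 11.56 and 11.56 against 11.14 and 11.34. It was 1.25-fold lower (log2 difference -0.32, SE 0.08, adjusted p = 0.0105), and the knockdown arrays were 0.20 apart. Larger falls than that of S100A13 were measured for 19.9% of all genes. The adjusted p was 0.0517 without control replicate 2 and 0.162 without moderation of the variances, over a range of 3.86e-06 to 0.162 among the alternatives.

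S100A10 was the member that rose. It differs from most of its relatives in that it no longer binds calcium. It forms a tight complex with annexin A2 that holds plasminogen and its activator at the cell surface. Its brighter probe set read 12.39 and 12.32 in the control arrays, and 12.67 and 12.55 in the knockdown arrays, so the groups were 0.16 apart at their nearest values. The rise was 1.19-fold (log2 difference 0.26, SE 0.06, adjusted p = 0.00802), and 1.22-fold at the other probe set (0.29). Larger rises were measured for 30.5% of all genes. The call was lost without control replicate 2 (0.22, adjusted p = 0.0651), without the intensity trend (adjusted p = 0.0524) and without moderation (adjusted p = 0.128), with a range of 6.04e-05 to 0.128 over the alternatives.

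S100A14, which accompanies epithelial identity, and S100A1, the heart and skeletal muscle member, were dim in both groups. S100A14 read 4.23 and 4.63 in the control arrays, and 4.40 and 4.65 in the knockdown arrays. S100A1 read 5.95 and 5.87 against 5.94 and 5.70. The groups overlapped for both genes. The log2 difference was 0.09 for S100A14 (95% interval -0.27 to 0.45, adjusted p = 0.675) and -0.09 for S100A1 (95% interval -0.38 to 0.21, adjusted p = 0.605). A change in the RNA smaller than the array resolves near its floor would not show in these values.

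**Figure D2:**
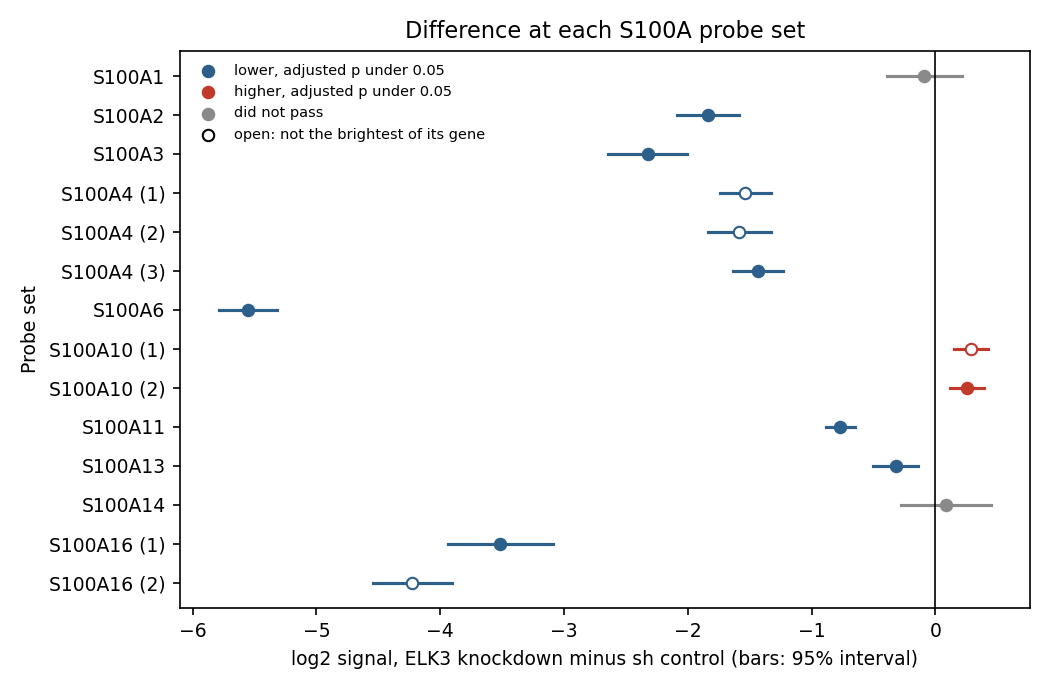
Difference in log2 signal, ELK3 knockdown minus sh control (x axis), at each of the 14 S100A probe sets (y axis), from the fit over all probe sets; bars are 95% intervals, filled points the brightest probe set of a gene, and colour the call. The differences run from -5.55 at S100A6 to 0.29 at a probe set of S100A10, and probe sets of the same gene lie on the same side of 0.

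Over the 14 probe sets, tested with all 49293, 10 fell, 2 rose and 2 did not pass, where 22.1% of all probe sets were called lower, 27.0% higher and 49.2% either way. S100A4, S100A10 and S100A16 had more than 1 probe set, and in each the probe sets went the same way. The remaining 7 members rest on 1 probe set each, so nothing on the array can be set beside it. The probe set of S100A11 has a name that marks a match to several transcripts (_s_), and the brightest ones of S100A4 and S100A10 have names that mark possible cross-hybridisation (_x_). With the latter left out S100A4 stood at -1.53 and S100A10 at 0.29.

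The falls were largest in a run of neighbouring genes. In the order along chromosome 1, S100A10 and S100A11 lie at one end of the cluster and are followed by genes of the skin barrier, then by S100A9, S100A12, S100A8 and the S100A7 genes, and then by S100A6, S100A5, S100A4, S100A3, S100A2, S100A16, S100A14, S100A13 and S100A1. From S100A6 to S100A16 there are 6 measured genes, of which 5 fell more than 2-fold; S100A5 in their midst was dim in both groups, at 4.67 and 4.71 on average, and did not pass. Of the 51 other genes between S100A10 and S100A1, 43 were dim in both groups and 47 did not pass. Among the 10 measured genes after S100A1, 8 rose and none fell, by limma's adjusted p or at an unadjusted p under 0.05, with a median difference of 0.72. Without moderation 5 of these 10 rose. Of all genes tested, 29.5% were called higher and 21.3% lower. Of the 10 after S100A1, 9 were not dim in both groups, against 8 of the 51 between, so these counts were taken at unlike signal levels. Among all 18132 genes, 6986 were dim in both groups, so the shares of all genes were not matched for level either. Of the 10 before S100A10, 4 rose and 2 fell, a number that ran from 0 to 2 over the alternatives. The neighbours on either side included TDRKH, a Tudor domain protein of the small RNA pathway (9.06-fold higher), SLC27A3, a fatty acid transport protein (5.80-fold higher), INTS3, an Integrator subunit (2.50-fold higher), and MRPL9, a mitochondrial ribosomal protein (2.42-fold higher). The control means of TDRKH and SLC27A3, 4.49 and 4.61, were under the median of all values, so a floor may limit their folds. Averaged over their probe sets, TDRKH stood at 1.91, INTS3 at 0.67 and MRPL9 at 0.48 on the log2 scale, and TDRKH at 0.65 with probe sets marked _x_ or _s_ left out.

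**Figure D3:**
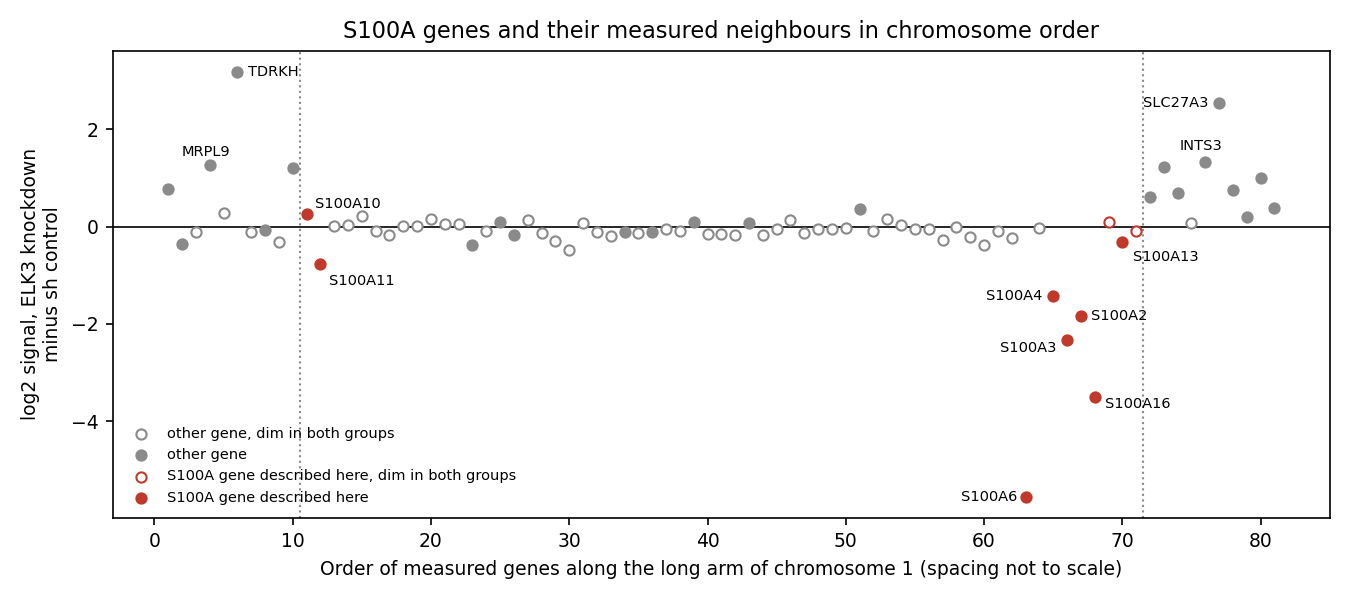
Difference in log2 signal, ELK3 knockdown minus sh control (y axis), of the measured genes from 10 before S100A10 to 10 after S100A1, in chromosome order (x axis, spacing not to scale); red points are the 10 S100A genes described here, grey the others, open points genes that were dim in both groups, and dotted lines the ends of the cluster. S100A6, S100A4, S100A3, S100A2 and S100A16 lie between -5.55 and -1.43. Of the 10 genes to the right of the cluster, 8 were called higher, against 29.5% of all genes. Of these 10, 9 were not dim in both groups, while 6986 of all 18132 genes were dim, so the share is not matched for level.

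The other S100 genes on the array were mostly dim, and the counts below stand beside 21.3% lower and 29.5% higher over all genes. Of 11 measured (S100A5, S100A7, S100A7A, S100A7L2, S100A8, S100A9, S100A12, S100B, S100G, S100P and S100Z), 10 were dim in both groups, 1 fell and 10 did not pass, with differences between -0.37 and 0.15. The gene that fell was S100A9, which pairs with S100A8 in neutrophils, at 4.40 and 4.27 in the controls and 4.07 in both knockdown arrays (adjusted p = 0.0345). Its call was lost in 7 settings. Among them were every setting that left out a knockdown array or control replicate 1, quantile normalization and no moderation. S100P, the one that was not dim, was at 6.89 and 6.94 against 7.06 and 7.06 (adjusted p = 0.289). Of the 7 genes that fuse an S100 domain to a long repeat, such as filaggrin and trichohyalin, 1 was called higher and 6 did not pass. All 7 were dim in both groups. The call was that of RPTN (0.21), and it was lost in 8 settings. Among them were leaving out either knockdown array or control replicate 1, no intensity trend, no moderation and array medians subtracted.

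The proteins that S100A members bind include annexins, myosin heavy chains and export cofactors. Of 17 measured partner genes, 9 fell, 2 rose and 6 did not pass, with a median difference of -0.38. Over all genes, 21.3% were called lower and 29.5% higher, with a median difference of -0.01. MYH9, the nonmuscle myosin IIA heavy chain that S100A4 binds, read 12.51 and 12.44 in the control arrays, and 10.61 and 10.63 in the knockdown arrays (3.62-fold lower). MYH10, the IIB heavy chain, went the other way, from 9.98 and 10.05 to 11.70 and 11.59 (3.10-fold higher). ANXA6, an annexin, was 2.35-fold lower, and SYT1, a synaptotagmin that joins S100A13 and FGF1 in their export, 5.87-fold lower, a call lost without moderation (adjusted p = 0.0512). The knockdown mean of SYT1, 4.70, was under the median of all values, so a floor may limit its fold.

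The direct partners of single members are given beside them, and those other than ANXA2 were picked after their values were seen. ANXA2, the partner of S100A10, read 13.65 and 13.66 in the controls, and 13.15 and 13.02 in the knockdown arrays, a fall of 0.57 on the log2 scale (SE 0.05, adjusted p = 8.30e-05), while S100A10 stood at 0.26. Averaged over its probe sets ANXA2 was at -0.88, and at -1.38 with those marked _x_ or _s_ left out. ANXA1, the partner of S100A11, was at -0.64 (SE 0.05). CACYBP, the partner of S100A6, was 2.05-fold higher (1.04), or 0.60 averaged over its probe sets, beside the 47.0-fold fall of S100A6. FGF1, which S100A13 helps to export, fell (2.09-fold) while dim in both groups, from 6.48 to 5.42 on average, so a floor may limit this fold too. Interleukin 1 alpha (IL1A) was dim at 5.11 and 4.83 on average and did not pass.

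Receptors and the plasminogen system give the side of the pathway outside the cell. Of 4 receptor genes, 2 fell and 2 did not pass, where 21.3% of all genes were called lower and 29.5% higher. TLR4, a receptor for extracellular S100 proteins, read 9.37 and 9.41 in the controls, and 4.98 and 5.44 in the knockdown arrays (18.1-fold lower, or -3.23 on the log2 scale when its probe sets are averaged). BSG, or basigin, was at -0.24 (adjusted p = 0.0325). Its call was lost in 8 settings, among them without control replicate 1 (adjusted p = 0.117), without control replicate 2 (0.289), without moderation (0.121), without the intensity trend (0.0580) and with its probe sets averaged (-0.19 on the log2 scale). The number of receptors called lower was 1 in each of these settings except without control replicate 1, where it was 2. AGER, the receptor RAGE, was at -0.40 (adjusted p = 0.0751). Of 7 genes around the plasminogen receptor that S100A10 forms, 5 fell and 2 did not pass, beside the same 21.3% of all genes called lower. The urokinase gene PLAU read 11.49 and 11.42 against 5.56 and 5.35 (64.0-fold lower, or -5.26 on the log2 scale when its probe sets are averaged), and its receptor PLAUR 10.83 and 10.96 against 7.57 and 7.62 (9.86-fold lower). The knockdown means of TLR4 and PLAU, 5.21 and 5.45, were under the median of all values, so a floor may limit both folds. The inhibitor gene SERPINE2 was 12.2-fold lower and tissue plasminogen activator PLAT 1.76-fold lower. PLAT lost its call without moderation (adjusted p = 0.121).

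Among 19 other EF hand proteins the changes went both ways, with 9 lower, 6 higher and 4 not passing, and a median of -0.25. Changes over all genes went both ways too, with 21.3% called lower and 29.5% higher. HPCAL1 and VSNL1, of the neuronal calcium sensor family, were 6.13-fold and 4.06-fold lower, the latter with a dim knockdown mean of 6.08. CIB2, a calcium and integrin binding protein, and CETN3, a centrin, were 4.42-fold and 2.57-fold higher. Without control replicate 1, 5 were lower, and without moderation 5 were lower and 2 higher.

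**Figure D4:**
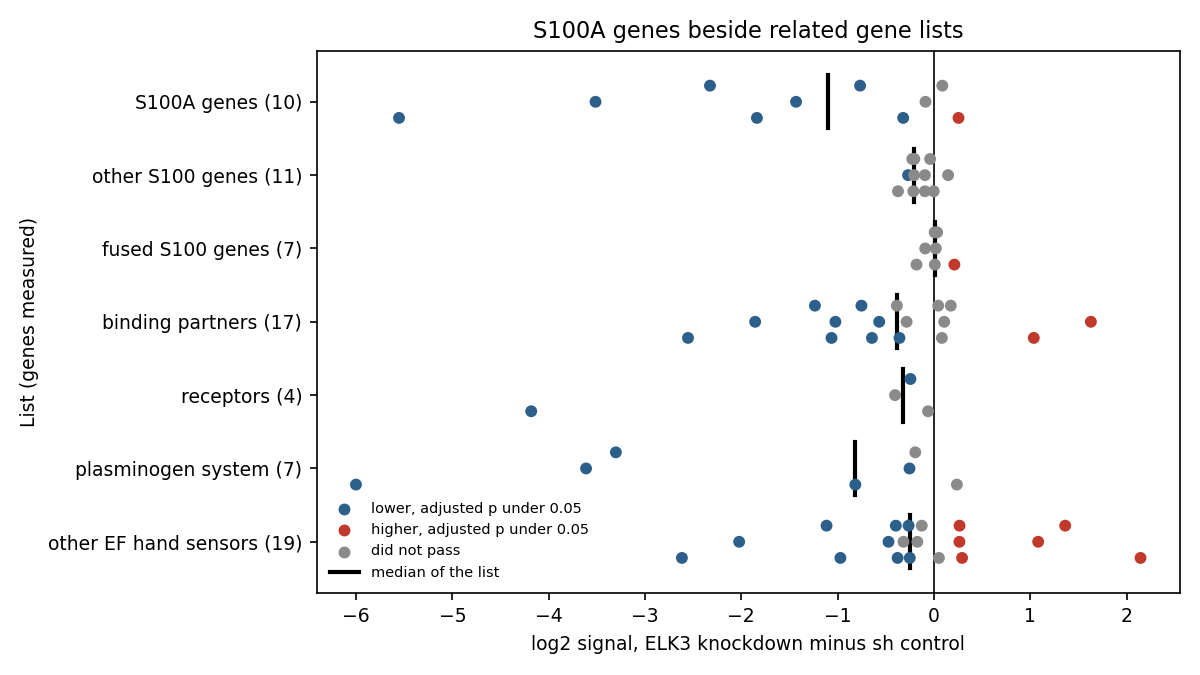
Difference in log2 signal, ELK3 knockdown minus sh control (x axis), of each measured gene in the S100A group and in 6 related lists (y axis, number measured in brackets); each point is a gene, colour is the call and the black bar the median of the list. The S100A median lies at -1.10 and that of the other S100 genes at -0.20, where all genes have a median of -0.01.

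The genes closest to S100A6 over the 4 arrays, by the Euclidean distance of signals taken relative to the control mean, were SEMA5A, a semaphorin (distance 0.170, log2 difference -5.47), CCDC80, a secreted matrix protein (0.193, -5.52), and TIMP3, a matrix protease inhibitor (0.230, -5.40). Those closest to S100A16 were HTRA1, a secreted protease (0.228, -3.42), NDN, or necdin (0.261, -3.39), and CTSB, the lysosomal protease cathepsin B (0.268, -3.67). The knockdown means of SEMA5A and NDN, 4.53 and 4.30, were under the median of all values. These 6 genes are described over 4 arrays only, and SEMA5A was at -3.84 when its probe sets were averaged.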

How the data were processed

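RNA of 4 Hs578T samples was measured on Affymetrix PrimeView arrays, 2 labelled ELK3 knockdown and 2 labelled sh control. The values the authors deposited are log2 signals per probe set, summarised with RMA per the submitters' processing notes (version not given in the sources used here); RMA makes the arrays' distributions alike, so a shift of all genes cannot be seen, and array medians ran from 6.76 to 6.80. No counts underlie these values, and the number of arrays limits the precision. GEO's platform annotation gave 1 symbol for 44988 of the 49293 probe sets, several for 1832 and none for 2473. For each of 18132 genes the probe set with the highest mean was used, and knockdown was set against control with limma 3.58.1 under R 4.3.3 (lmFit, eBayes with an intensity trend, prior df 4.83, residual df 2, Benjamini-Hochberg over all genes, threshold 0.05); a second fit used all probe sets. The steps were run on simulated data in which 200 of the 18132 genes were changed and spreads were drawn from the model limma fitted to these arrays. In the real arrays 50.8% of genes were called, so the simulation does not give the error rate here. The members, the lists and the rules were chosen with earlier results of these data known. Named were all members, ELK3, ANXA2, up to 4 called genes of each list by size of change, and the 3 genes nearest to each of the 2 members that changed most. The promoter search, the neighbouring genes named and the direct partners beside ANXA2 were chosen after values were seen. Upstream windows are from RefSeq on GRCh38.p14 and all 10 members matched; 18112 genes were placed in chromosome order. Listed genes with no probe set of a single symbol, and protein sequences, were not analysed here. Alternatives covered variance moderation, probe set choice, dim genes, normalization, thresholds and leaving out each array.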

Additional observations from a re-analysis of the deposited data

How the results depend on the processing

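No paired analysis was possible because the groups share only replicate number 1. Of the members' log2 differences under the alternatives, 136 kept direction and call, 8 kept direction but lost the call, and 3 changed sign: S100A1 stood at 0.033 without knockdown replicate 5, and S100A14 at -0.04 without knockdown replicate 5 and -0.11 without control replicate 1, neither being called. Direction could not change under variance moderation, thresholds or the omission of dim genes, which reuse the same log2 difference. Nor could it change with probe set choice for a gene with 1 probe set. On leaving out 1 array S100A1 ranged from -0.21 to 0.033 and S100A14 from -0.11 to 0.29. Members called lower numbered 6 to 7 throughout. Members called higher numbered 0 without the intensity trend by limma (1 at an unadjusted p under 0.05), 0 without moderation (0 at an unadjusted p under 0.05), 0 under the selection of the series' design text (more than 1.5-fold, p under 0.05 before adjustment), and 0 to 1 on leaving out 1 array, being 0 without control replicate 2. Probe sets of members called higher numbered 1 without the trend, 0 without moderation (1 at an unadjusted p under 0.05), 0 under the design text's selection, and 0 to 2 on leaving out 1 array, again 0 without control replicate 2. The cause was not tested, except that the design text's selection asks for a fold that S100A10 does not have. S100A11 has no value with _x_ and _s_ probe sets left out. A group left with 1 array is assumed to vary like the other group. The share of all genes called was not counted under the alternatives, so the member and probe set counts above have none beside them. Of the other named genes' differences, 444 kept direction and call, 27 lost the call and 3 gained it; of the counts in related lists, 216 stayed within 1.5 times and 54 moved further.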
